A study of Mus musculus with 6 samples.

Results

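The 10 genes described here encode integrin subunits of CD4 T cells, the alpha chains *Itgae*, *Itgav*, *Itga4*, *Itgal* and *Itga6* and the beta chains *Itgb8*, *Itgb1*, *Itgb7*, *Itgb2* and *Itgb3*. They were listed by name, their estimated counts were summed over the transcripts of each gene symbol, and all 10 were found among the 45777 genes of the tables. CD4 T cells were sorted by flow cytometry into CD4+Lrig1+ and CD4+Lrig1- populations, by surface Lrig1, a leucine-rich repeat protein that restrains receptor tyrosine kinases. They came from the spleens of untreated, wild-type C57BL/6 mice, an inbred strain, all female and 7 weeks of age. Poly(A) RNA was sequenced in bulk with a stranded kit and paired-end reads. The data comprised 2 CD4+Lrig1+ and 2 CD4+Lrig1- libraries in 2 tables, called set 1 and set 2 here, with 1 library of each group per set. Whether a library pooled several mice is not given in the sources used here.

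Integrins are adhesion receptors made of 1 alpha and 1 beta chain, and a chain can pair with several partners, so the partners present decide which receptors a cell can assemble. On T cells, Itgal with Itgb2 forms LFA-1, which binds ICAM proteins at contacts with other cells. Itga4 with Itgb1 or Itgb7 directs entry into inflamed tissue and gut, and Itgae with Itgb7 (CD103) binds E-cadherin on epithelium. Itgav with Itgb8 binds latent TGF-beta and releases its active form, and this receptor is known on regulatory T cells, as is CD103.

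The libraries held 44865070 to 59977951 estimated counts on genes. *Lrig1*, the gene the sort was made on, had 221 and 129 CPM (estimated counts scaled to library size by TMM) in the CD4+Lrig1+ libraries of sets 1 and 2 and 75.4 and 36.7 in the CD4+Lrig1- libraries. *Cd4* lay between 924 and 1099.8 CPM in all 4 libraries, and all 10 T cell markers were detected in each. The 6 regulatory T cell markers (*Foxp3*, *Il2ra*, *Ctla4*, *Ikzf2*, *Tnfrsf18*, *Tnfrsf4*) summed to 2165 and 1983 CPM in CD4+Lrig1+ and to 223 and 152 CPM in CD4+Lrig1- libraries. The summed B cell markers lay between 76.2 and 94.7 CPM in set 1 and at 386 (CD4+Lrig1+) and 763 (CD4+Lrig1-) in set 2. The part of these other cells in the integrin values was not tested. In bulk RNA, fewer cells of a type and less RNA per cell cannot be told apart.

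In CD4+Lrig1+ T cells, the integrin genes *Itgb8*, *Itgae*, *Itgb1* and *Itgav* stood at least 1.5-fold above CD4+Lrig1- T cells in both sets, and *Itgb3* stood at least 1.5-fold below in both sets. Among the 16123 genes that passed edgeR's filter on low counts, 11.7% were at least 1.5-fold higher in both sets and 7.02% were at least 1.5-fold lower. *Itgal* was higher by a smaller amount in both sets. *Itga4*, *Itgb7*, *Itgb2* and *Itga6* overlapped between the groups. The groups did not overlap for 5 of the 10 genes with CD4+Lrig1+ on top, as for 14.3% of all genes tested, and for *Itgb3* with CD4+Lrig1+ below, as for 11.8%.

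None of the 10 genes passed edgeR's quasi-likelihood test at an adjusted p under 0.05, and 0.00% of all genes did. The smallest adjusted p over all genes tested by this test was 0.501, a value that *Itgae* shared with *Foxp3*, *Il2ra* and *Tnfrsf4* among the genes looked at here. Before adjustment, of the 16123 genes tested, p was under 0.05 for 674 on the higher side and 227 on the lower side. *Itgae* and *Itgb1* were among the higher and *Itgb3* among the lower ones. No gene stayed under 0.05 after adjustment. DESeq2's Wald test called 263 genes higher and 50 lower, of the integrins *Itgae* (higher) and *Itgb3* (lower). With a term for the set, called the table block here, edgeR's quasi-likelihood test called *Itgae*, *Itgb8*, *Itgav*, *Itgb1* and *Itgal* higher, beside 14.6% of all genes, and *Itgb3* lower, beside 12.8%. The table block leaves 1 residual degree of freedom. The labels do not say whether the libraries of a group came from separate mice, so p-values measure only the spread between these libraries, which may be technical. With groups of 2, the exact permutation test reaches at best p = 0.333 for any single gene.

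**Figure D1:**
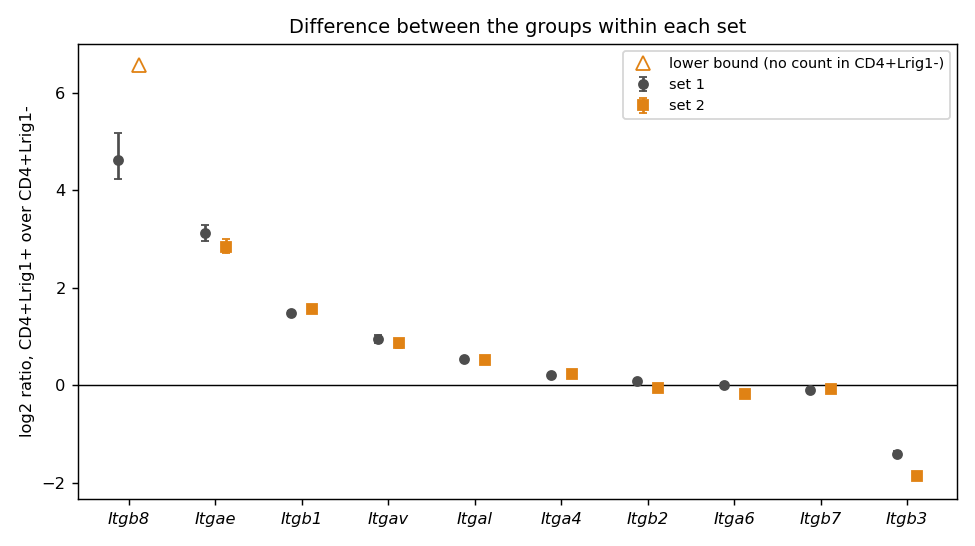
Difference between CD4+Lrig1+ and CD4+Lrig1- T cells, as the log2 ratio of TMM-normalized counts (prior count 2), for the 10 integrin genes within set 1 (circles) and set 2 (squares), with bars for the 95% counting interval. *Itgb8* had no count in the CD4+Lrig1- library of set 2 and is drawn there as a lower bound (open triangle). *Itgb8*, *Itgae*, *Itgb1* and *Itgav* lie above 0 in both sets, as do *Itgal* and *Itga4* by less. *Itgb3* lies below 0 in both sets, as do *Itgb7* and *Itga6* by less, and *Itgb2* changes sign between the sets.

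The stretches of 250 bases before the annotated starts of *Itgb8*, *Itgb1* and *Itgav*, members that were higher in both sets, are shown because Smad factors, the nuclear carriers of the TGF-beta signal, bind CAGAC. They are read from RefSeq promoters of GRCm38.p6, 5′ to 3′ on the gene's strand. Capitals mark CAGAC or its complement GTCTG. For *Itgav*, the stretch lies before the transcript NM_008402. That transcript's log2 ratio, CD4+Lrig1+ over CD4+Lrig1-, was -0.26 in set 1 and -0.38 in set 2. No stretch was read before XM_006498807, the *Itgav* transcript that starts further upstream.

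*Itgb8* (chr12:119238277-119238526, minus strand): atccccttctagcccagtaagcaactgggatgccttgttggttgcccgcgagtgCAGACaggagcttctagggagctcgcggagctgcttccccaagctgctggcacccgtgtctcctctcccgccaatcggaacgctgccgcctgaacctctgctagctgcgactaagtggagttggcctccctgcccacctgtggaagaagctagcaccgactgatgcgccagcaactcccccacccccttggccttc

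*Itgb1* (chr8:128685404-128685653, plus strand): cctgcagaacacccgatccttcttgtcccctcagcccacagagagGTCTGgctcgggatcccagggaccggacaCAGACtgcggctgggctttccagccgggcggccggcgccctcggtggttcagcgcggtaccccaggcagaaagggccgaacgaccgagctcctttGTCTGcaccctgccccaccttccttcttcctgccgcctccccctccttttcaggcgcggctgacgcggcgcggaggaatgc

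*Itgav* (chr2:83724147-83724396, plus strand): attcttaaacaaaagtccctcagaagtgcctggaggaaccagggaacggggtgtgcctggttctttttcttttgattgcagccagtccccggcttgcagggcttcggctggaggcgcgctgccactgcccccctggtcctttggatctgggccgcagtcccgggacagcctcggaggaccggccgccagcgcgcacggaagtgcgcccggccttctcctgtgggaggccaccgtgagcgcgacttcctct

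CAGAC on either strand occurred 1 time in the *Itgb8* stretch and 3 times in that of *Itgb1*, and these letters were not in the window of *Itgav*. Of all 32851 promoters in the reference, 42.2% held it. The GC box letters GGCGGG or CCCGCC occurred in the *Itgb8* stretch only among these 3, against 32.5% of all promoters. The Runx letters TGTGGT or ACCACA occurred in none of the 3, against 14.0% of all promoters. Of the 10 members, 5 matched the promoter table, the other two being *Itga4* and *Itgb7*, whose groups overlapped in level. CAGAC on either strand occurred 1 time in the stretch of *Itga4* and 2 times in that of *Itgb7*, so it was present in both of these and absent from that of *Itgav*. The *Itga4* stretch also held the GC box and Runx letters, 1 time each, and that of *Itgb7* held neither. A match of letters is a description of the sequence.

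*Itgb8* (gene ID 320910, 1 transcript, chromosome 12 of GRCm38 from 119162803 to 119238276) encodes the beta chain that pairs only with Itgav. It held 1140 and 304 estimated counts in the CD4+Lrig1+ libraries of sets 1 and 2, and 41 and 0 in the CD4+Lrig1- libraries. These are 21.9 and 5.29 CPM against 0.856 and 0 CPM. The groups did not overlap. The log2 ratio of set 2 over set 1 in CD4+Lrig1+ was -2.05, larger in size than that of any other member. Both CD4+Lrig1+ libraries stayed above both CD4+Lrig1- libraries. In set 1 the log2 ratio was 4.62 (95% counting interval 4.23 to 5.16), a 24.6-fold difference. In set 2, *Itgb8* was at least 95.3-fold higher in the CD4+Lrig1+ library, taking 3 counts per library as the limit that a count of 0 allows and no counting error for the 304 counts. With counting error in both libraries, the 95% interval of the log2 ratio began at 6.27. By edgeR's quasi-likelihood test its adjusted p was 1.00, and 2.93e-04 with the table block. A fitted fold change of *Itgb8* depends on the prior count, because 1 library is at 0.

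*Itgav* (gene ID 16410, chromosome 2 from 83722303 to 83806917) encodes the alpha chain that Itgb8, Itgb3, Itgb1 and Itgb5 share. Its counts were 3692 and 2943 in CD4+Lrig1+ and 1764 and 1528 in CD4+Lrig1- libraries, or 71.0 and 51.2 CPM against 36.8 and 28.3 CPM. The groups did not overlap, and within each group set 2 was the lower one. CD4+Lrig1+ exceeded CD4+Lrig1- by a log2 ratio of 0.95 (0.86 to 1.03) in set 1 and 0.86 (0.77 to 0.95) in set 2, that is 1.93-fold and 1.81-fold. The log2 fold change was 0.91 (standard error 0.33, adjusted p = 0.915 by edgeR's quasi-likelihood test) and 0.90 (standard error 0.082, adjusted p = 2.96e-04) with the table block.

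The level of *Itgb8* per *Itgav*, as a ratio of FPKM (fragments scaled by transcript length and library depth, summed over the transcripts of a gene), was 0.867 and 0.297 in CD4+Lrig1+ and 0.0608 and 0 in CD4+Lrig1- libraries. In every library *Itgb8* was thus below *Itgav* on this scale. A further beta partner of Itgav, *Itgb3*, ran the other way, with 2.08 and 1.98 FPKM per FPKM of *Itgav* in CD4+Lrig1+ and 9.98 and 12.6 in CD4+Lrig1- libraries. The ranges of the groups did not overlap for either ratio.

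*Itgae* (gene ID 16407, chromosome 11 from 73090505 to 73147449) encodes the alpha chain of CD103. It held 3024 and 3329 counts in CD4+Lrig1+ and 320 and 435 in CD4+Lrig1- libraries. The means were 58.1 ± 0.13 CPM (SD, n = 2) and 7.37 ± 0.97 CPM (SD, n = 2). The libraries of each group lay close together, and the groups were far apart. Within the sets the log2 ratio was 3.11 (2.95 to 3.29) in set 1 and 2.84 (2.70 to 2.99) in set 2, or 8.66-fold and 7.17-fold. The log2 fold change over all libraries was 2.98 (standard error 0.30, adjusted p = 0.501 by edgeR's quasi-likelihood test). With the table block the adjusted p of *Itgae* by that test was 8.78e-06, and by DESeq2's Wald test, without the block, it was 7.42e-08. The study displayed *Itgae* among regulatory T cell genes of these libraries, so its direction here is not independent evidence. The summed regulatory T cell markers given above were higher in the same libraries, and the summed CD8 T cell markers *Cd8a* and *Cd8b1* were lower, at 14.1 and 51.6 CPM against 19.5 and 97.3 CPM. Their part in the *Itgae* values was not tested.

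*Itgb7* (gene ID 16421, chromosome 15 from 102215994 to 102233405) encodes the beta chain that completes CD103 and the gut homing receptor with Itga4. Its levels were 721 and 828 CPM in CD4+Lrig1+ and 777 and 878 CPM in CD4+Lrig1- libraries. The groups overlapped, and set 2 was the higher one in both. The log2 ratio was -0.11 in set 1 and -0.08 in set 2, and in set 2 its sign depended on the scaling (0.02 with library totals). The adjusted p by edgeR's quasi-likelihood test was 1.00, and 0.518 with the table block.

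*Itgb7* exceeded *Itgae* on the FPKM scale in all 4 libraries. The FPKM ratio of *Itgb7* to *Itgae* was 18.2 and 20.7 in CD4+Lrig1+ and 169.6 and 160.3 in CD4+Lrig1- libraries. The ratio was lower in both CD4+Lrig1+ libraries while the FPKM of *Itgb7* itself, 259 and 279.9 against 279 and 277, overlapped between the groups.

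*Itga4* (gene ID 16401, chromosome 2 from 79255426 to 79333114) encodes the alpha chain shared by the gut and inflamed-tissue homing receptors. It had 809.9 and 370.0 CPM in CD4+Lrig1+ and 697 and 315 CPM in CD4+Lrig1- libraries. The libraries of set 1 were the high ones in both groups, so the groups overlapped. The log2 ratio of set 2 over set 1 was -1.13 for the CD4+Lrig1+ pair and -1.15 for the CD4+Lrig1- pair. Within the sets the log2 ratio between the groups was 0.22 and 0.23, or 1.16-fold and 1.18-fold. The adjusted p by edgeR's quasi-likelihood test was 1.00, and 0.105 with the table block.

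*Itgb1* (gene ID 16412, 1 transcript, chromosome 8 from 128685654 to 128733579) encodes the most widely shared beta chain, the partner of Itga4, Itga6 and most collagen, laminin and fibronectin binding alpha chains. Its counts were 24431 and 40518 in CD4+Lrig1+ and 8036 and 12977 in CD4+Lrig1- libraries, or 469.8 and 706 CPM against 168 and 240.3 CPM. The groups did not overlap, with set 2 the higher one in each group. The difference was a log2 ratio of 1.48 (1.45 to 1.52) in set 1 and 1.55 (1.53 to 1.58) in set 2, or 2.80-fold and 2.94-fold. The log2 fold change was 1.53 (standard error 0.44, adjusted p = 0.705 by edgeR's quasi-likelihood test), and the adjusted p was 3.86e-05 with the table block.

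Relative to *Itga4*, *Itga6* and *Itgav*, *Itgb1* was also higher in CD4+Lrig1+ T cells within each set. This did not hold for its partner *Itga9*, which had larger log2 ratios (2.20 and 2.12) than *Itgb1*. The FPKM ratio of *Itgb1* to *Itga4* was 1.36 and 4.47 in CD4+Lrig1+ against 0.564 and 1.79 in CD4+Lrig1- libraries, values that overlapped across the sets but differed in the same direction within each. The ratio of *Itgb1* to *Itga6* was 3.24 and 5.82 against 1.15 and 1.74, and here the groups did not overlap. The ratio of *Itgb1* to *Itgav* was 13.7 and 29.3 against 8.89 and 17.5, which overlapped across the sets.

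*Itgal* (gene ID 16408, chromosome 7 from 127296139 to 127335137) encodes the alpha chain of LFA-1. It held 61776 and 60968 counts in CD4+Lrig1+ and 39459 and 39824 in CD4+Lrig1- libraries, or 1188 and 1062 CPM against 824 and 737 CPM. The groups did not overlap. In both sets the log2 ratio was 0.53, or 1.44-fold. The adjusted p by edgeR's quasi-likelihood test was 1.00, and 0.00793 with the table block.

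*Itgb2* (gene ID 16414, chromosome 10 from 77530329 to 77565708), the beta chain of LFA-1 and of the myeloid integrins, had 636.5 and 643 CPM in CD4+Lrig1+ and 602 and 668 CPM in CD4+Lrig1- libraries. The groups overlapped, and the log2 ratio was 0.08 in set 1 and -0.06 in set 2. The FPKM ratio of *Itgal* to *Itgb2* was 1.04 and 0.918 in CD4+Lrig1+ against 0.763 and 0.612 in CD4+Lrig1- libraries. The LFA-1 alpha and beta transcripts were thus near equal on this scale in CD4+Lrig1+ T cells, and the alpha chain was the lower one in CD4+Lrig1- T cells.

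*Itga6* (gene ID 16403, chromosome 2 from 71786886 to 71858427), the alpha chain of a laminin receptor, had 208 and 174 CPM in CD4+Lrig1+ and 208 and 198 CPM in CD4+Lrig1- libraries. The groups overlapped. The log2 ratio was -0.00 in set 1 and -0.19 in set 2, with an adjusted p of 1.00 by edgeR's quasi-likelihood test and 0.445 with the table block.

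*Itgb3* (gene ID 16416, chromosome 11 from 104608000 to 104670476) encodes the beta chain of the vitronectin receptor with Itgav and, with Itga2b, of the fibrinogen receptor of platelets. It held 5112 and 3779 counts in CD4+Lrig1+ and 12436 and 12864 in CD4+Lrig1- libraries, or 98.3 and 65.8 CPM against 259.7 and 238 CPM. Both CD4+Lrig1- libraries were the high ones. Within the sets the log2 ratio was -1.40 (-1.45 to -1.35) in set 1 and -1.86 (-1.91 to -1.80) in set 2. The level in CD4+Lrig1+ T cells was thus 2.64-fold and 3.62-fold lower. The log2 fold change was -1.60 (standard error 0.36, adjusted p = 0.646 by edgeR's quasi-likelihood test). The adjusted p of *Itgb3* was 1.04e-04 with the table block and 0.0420 by DESeq2's Wald test.

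Since *Itgb3* also marks platelets, the platelet list was read beside it. Its 8 genes (*Pf4*, *Ppbp*, *Gp9*, *Gp1ba*, *Gp1bb*, *Gp5*, *Treml1*, *Clec1b*) summed to 0.25 and 1.57 CPM in CD4+Lrig1+ and 0.251 and 0.722 CPM in CD4+Lrig1- libraries, with 4 or 5 of them at 0 in each library. *Ppbp*, *Gp9* and *Treml1* were at 0 in all 4. The platelet alpha chain *Itga2b* had 2.19 and 0.192 CPM in CD4+Lrig1+ and 2.99 and 0.111 CPM in CD4+Lrig1- libraries. *Itga2b* was higher in set 1 in both groups and differed in opposite directions between the groups within the sets. The part of platelets or of other cells in the *Itgb3* values was not tested.

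**Figure D2:**
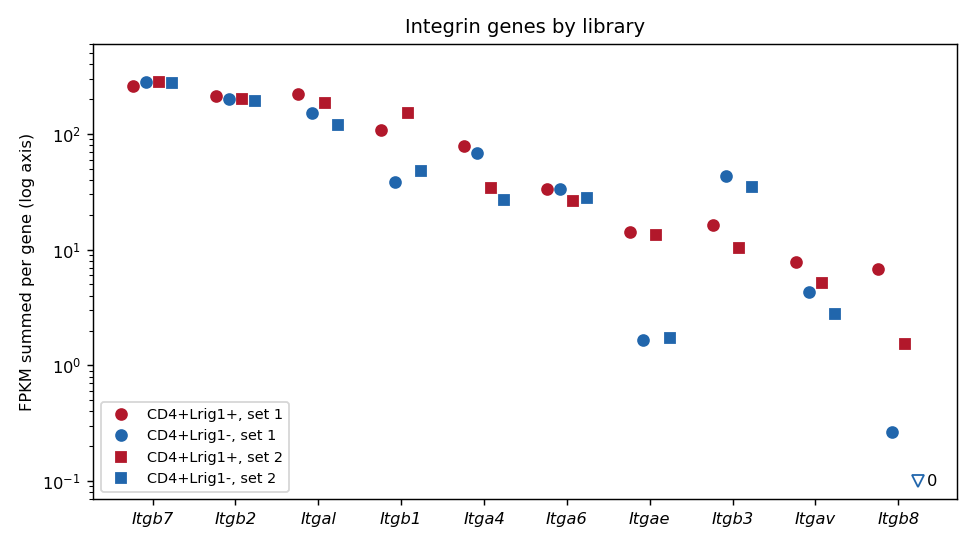
FPKM summed per gene (log axis) of the 10 integrin genes in each library, CD4+Lrig1+ in red and CD4+Lrig1- in blue, with circles for set 1 and squares for set 2 and an open triangle for the *Itgb8* value of 0. *Itgb7*, *Itgb2* and *Itgal* are the 3 most abundant in every library. The red points of *Itgae*, *Itgb8*, *Itgav*, *Itgb1* and *Itgal* lie above the blue ones, and those of *Itgb3* lie below.

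Levels of different genes are compared per length, on the FPKM scale. In CD4+Lrig1+ T cells the order of the mean FPKM (± SD, n = 2) was *Itgb7* 269.5 ± 14.7, *Itgb2* 206 ± 8.86, *Itgal* 202 ± 26.0, *Itgb1* 129.8 ± 31.2, *Itga4* 56.6 ± 32.0, *Itga6* 29.7 ± 5.05, *Itgae* 13.9 ± 0.521, *Itgb3* 13.3 ± 4.29, *Itgav* 6.52 ± 1.88 and *Itgb8* 4.18 ± 3.72. The neighbours *Itgb2* and *Itgal*, and *Itgae* and *Itgb3*, overlapped in range and changed places between the sets, so their order is not settled by these libraries. *Itgav* and *Itgb8* overlapped in range across the sets, with *Itgav* the higher one in each library. In CD4+Lrig1- T cells the order was *Itgb7* 278 ± 1.11, *Itgb2* 197 ± 3.76, *Itgal* 136 ± 23.7, *Itga4* 47.6 ± 29.1, *Itgb1* 43.4 ± 7.00, *Itgb3* 38.9 ± 5.93, *Itga6* 30.6 ± 4.02, *Itgav* 3.55 ± 1.10, *Itgae* 1.69 ± 0.0607 and *Itgb8* 0.131 ± 0.186. Here *Itga4* overlapped with *Itgb1*, *Itgb3* and *Itga6* and changed places with each of them between the sets. *Itgb1* and *Itgb3* did so as well, so the order of these genes is not settled either. *Itgae* ranked above *Itgav* in both CD4+Lrig1+ libraries and below it in both CD4+Lrig1- libraries.

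Among the 5 beta chains, *Itgb1* took 17.9% and 23.6% of the summed FPKM in CD4+Lrig1+ and 6.85% and 8.71% in CD4+Lrig1- libraries. *Itgb7* took 43.0% and 43.5% against 49.7% and 49.95%, and *Itgb3* took 2.71% and 1.60% against 7.69% and 6.26%. The CD4+Lrig1+ beta chain mix thus held more *Itgb1* and less *Itgb7* and *Itgb3* in both sets, while *Itgb2*, at 35.3% and 31.1% against 35.7% and 35.1%, differed by less within the sets. Among the 5 alpha chains, *Itgae* took 4.01% and 5.15% in CD4+Lrig1+ against 0.632% and 0.969% in CD4+Lrig1- libraries. *Itgal* was the main alpha chain in all libraries, with 62.1% and 70.0% against 58.7% and 66.8%. *Itga4*, with 22.3% and 12.95% against 26.2% and 15.1%, was above *Itga6*, with 9.37% and 9.95% against 12.9% and 15.6%, in all libraries but the CD4+Lrig1- library of set 2. Shares within a library are tied to each other, since one chain's share falls when another's rises.

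**Figure D3:**
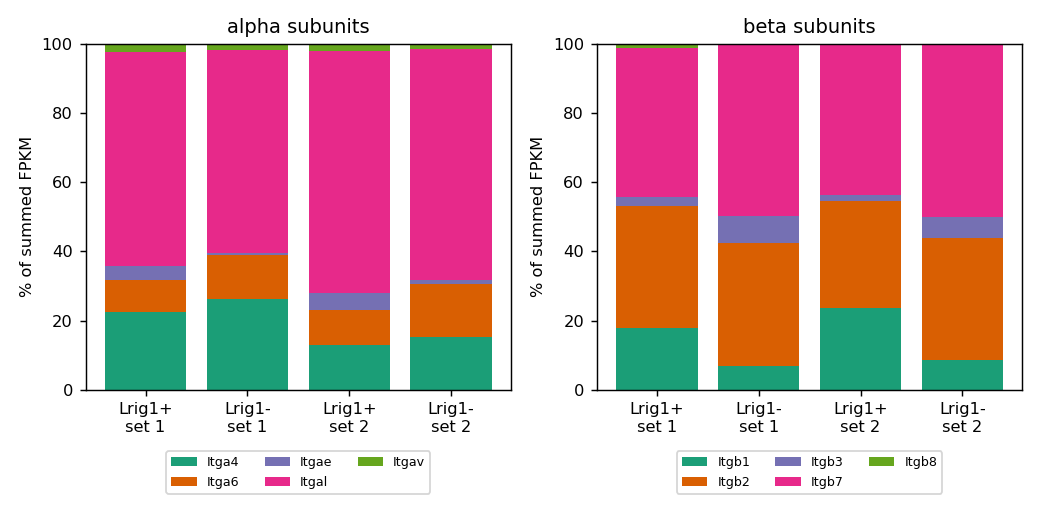
Share of the summed FPKM of the 5 alpha chains (left) and the 5 beta chains (right) taken by each chain in each of the 4 libraries, as stacked bars that add to 100%. *Itgb1* takes 17.9% and 23.6% of the beta chains in CD4+Lrig1+ and 6.85% and 8.71% in CD4+Lrig1- libraries.

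The tables list several transcripts for all members but *Itgb8*, *Itgb1* and *Itga4*, and their counts are StringTie's estimates of how reads divide among them, which are uncertain where transcripts share most of their sequence. The sequence of 1 alternative coding exon of *Itga6* is given because its main transcripts differ by it. NM_008397 holds the exon, the 25th of its 26 (chr2:71853534-71853663, plus strand, GRCm38), and NM_001277970 skips it, which gives the protein another cytoplasmic tail. The exon is 130 bases long, of which 105 bases (71853534 to 71853638) are coding.

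*Itga6* exon 25, coding part: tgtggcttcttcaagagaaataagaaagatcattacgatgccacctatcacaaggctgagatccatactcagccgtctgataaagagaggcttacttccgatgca

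The transcript without the exon held 1130 and 530 counts in CD4+Lrig1+ and 3072 and 1249 in CD4+Lrig1- libraries. That is 10.5% (95% exact interval 9.90 to 11.1) and 5.31% (4.88 to 5.77) of the *Itga6* counts, against 30.8% (29.9 to 31.7) and 11.7% (11.1 to 12.3). The share was lower in CD4+Lrig1+ within each set, and it was lower in set 2 in each group, yet no CD4+Lrig1+ library reached the lowest CD4+Lrig1- library. The log2 ratio of this transcript was -1.56 and -1.32, while the sum over all *Itga6* transcripts overlapped between the groups. The transcript with the exon held 9656 and 9450 counts against 6886 and 9422. These ratios have no test, and intervals cover counting error only.

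For *Itgav*, the transcript NM_008402, which starts at 83724397, held 635 and 253 counts in CD4+Lrig1+ and 700 and 311 in CD4+Lrig1- libraries. Its share was 17.2% (16.0 to 18.5) and 8.60% (7.61 to 9.67) against 39.7% (37.4 to 42.0) and 20.4% (18.4 to 22.5), lower in CD4+Lrig1+ within each set. XM_006498807, a predicted transcript that starts further upstream at 83722303, held 3057 and 2690 counts against 1064 and 1217. By StringTie's estimates, the higher gene-level count in CD4+Lrig1+ T cells was assigned to the predicted transcript. Its log2 ratios were 1.40 and 1.05, against -0.26 and -0.38 for NM_008402. The share of NM_008402 was also lower in set 2 within each group. The promoter stretch printed for *Itgav* is the one before NM_008402.

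For *Itgae*, NM_001361245 held 464 and 420 counts in CD4+Lrig1+ and 0 in both CD4+Lrig1- libraries, or 15.3% (14.1 to 16.7) and 12.6% (11.5 to 13.8) against 0%. Its length, 3845 bases, is within 3 bases of the 3848 of the main transcript NM_008399, so few reads can tell these apart. NM_008399 alone held 2190 and 2780 counts against 293 and 386. For *Itgb2*, NM_008404 took 14.5% and 4.48% in CD4+Lrig1+ against 38.1% and 5.16% in CD4+Lrig1- libraries, so the CD4+Lrig1- library of set 1 stood apart from the other three.

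**Figure D4:**
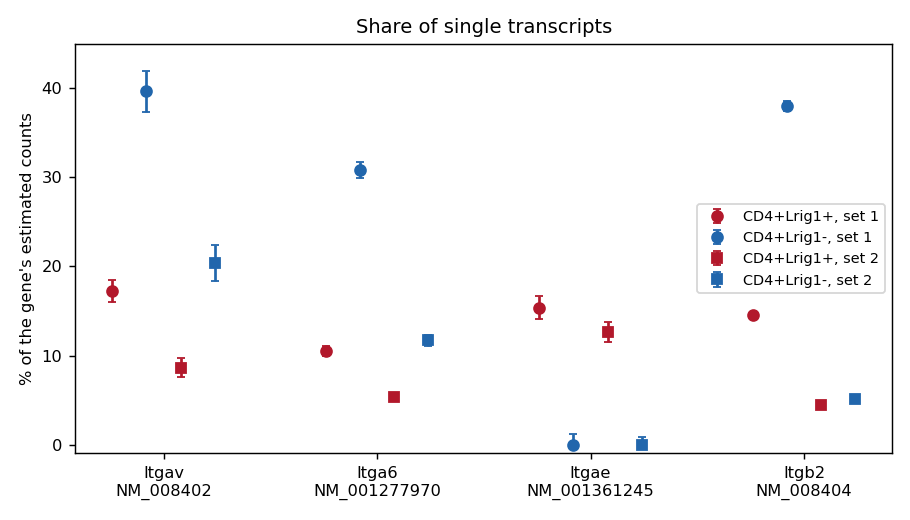
Share of the gene's estimated counts assigned to 1 transcript each of *Itgav*, *Itga6*, *Itgae* and *Itgb2* in the 4 libraries, with bars for the 95% exact counting interval. The *Itgav* and *Itga6* transcripts take a lower share in CD4+Lrig1+ (red) than in CD4+Lrig1- (blue) within each set, the *Itgae* transcript is at 0 in both CD4+Lrig1- libraries, and the *Itgb2* transcript reaches 38.1% in 1 library.

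Of the 16 other integrin subunits, 12 passed the filter on low counts. With the table block, 4 were called higher and 3 lower by edgeR's quasi-likelihood test, beside 14.6% and 12.8% of all genes. Without the block none of the 12 was called. Their median log2 ratio was 0.01 in set 1 and 0.30 in set 2, against 0.01 and -0.06 over all genes tested and 0.37 and 0.38 for the 10 integrin genes described here. *Itga9*, the alpha chain that pairs with Itgb1 and binds osteopontin and VCAM-1, had 10.8 and 13.8 CPM in CD4+Lrig1+ against 2.32 and 3.13 CPM in CD4+Lrig1- libraries (log2 ratio 2.20 and 2.12, adjusted p = 9.27e-05 with the table block by edgeR). *Itgb5*, a further beta partner of Itgav, had 2.42 and 7.23 CPM against 0.668 and 2.37 CPM (1.80 and 1.59, adjusted p = 0.00210 by the same edgeR test). *Itgax* (CD11c), an Itgb2 partner typical of dendritic cells, ran the other way with 4.42 and 6.27 CPM against 29.5 and 17.4 CPM (-2.73 and -1.47, adjusted p = 0.00136 by the same edgeR test).

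Chosen after their values were seen, the other calls of this list are also named. *Itgad*, an Itgb2 partner of macrophages, had log2 ratios of 1.46 and 1.55, and *Itga7*, a laminin receptor chain, 0.43 and 0.50. *Itgam*, the alpha chain of the myeloid receptor Mac-1, had -1.21 and -1.70, and *Itga1*, a collagen receptor chain at no more than 2.34 CPM, had -2.37 and -2.21. Markers of myeloid cells moved with some of these genes. The 8 dendritic cell markers summed to 19.6 and 20.04 CPM in CD4+Lrig1+ and 54.6 and 73.1 CPM in CD4+Lrig1- libraries, with 7 of 8 lower in both sets, and the 10 macrophage and neutrophil markers summed to 49.4 and 279.8 CPM against 32.6 and 234.0 CPM, with 5 of 10 higher in both sets. None of either list was at 0 in any library, and the part of these cells in the values of *Itgax*, *Itgam* and *Itgad* was not tested. The summed NK cell markers were 44.5 and 90.8 CPM against 76.6 and 193 CPM, with 7 of 8 lower in both sets. The exception was *Eomes*, at 24.1 and 41.3 CPM in CD4+Lrig1+ libraries and higher there in both sets (log2 ratio 2.51 and 2.16). The part of NK cells in the integrin values was not tested either.

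Integrins bind strongly only after talin and kindlin attach to the beta tail, a step started by the GTPase Rap1 and its activators. Of 30 activators, adaptors and inhibitors, 26 passed the filter. With the table block, 1 was called higher and 6 lower by edgeR's quasi-likelihood test, beside 14.6% and 12.8% of all genes. The median log2 ratio of the 26 was -0.06 in set 1 and -0.12 in set 2. *Rasgrp2*, the exchange factor that loads Rap1, had 304 and 107 CPM in CD4+Lrig1+ against 571 and 226 CPM in CD4+Lrig1- libraries (log2 ratio -0.91 and -1.09, adjusted p = 2.52e-04 with the table block by edgeR). *Rasgrp1*, a related exchange factor for Ras, had 400.4 and 291 against 581 and 514 CPM (-0.54 and -0.82, adjusted p = 0.00277 by the same edgeR test). *Ptk2*, the focal adhesion kinase, had 5.71 and 4.25 against 9.71 and 7.89 CPM (-0.76 and -0.89, adjusted p = 0.00661 by the same edgeR test). *Rasgrp2* also differed between the sets, so its groups overlapped without the pairing by set.

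Named after their values were seen, the other calls of this list were *Rap1b* (log2 ratio -0.48 and -0.70), *Apbb1ip*, the Rap1 effector RIAM (-0.31 and -0.31), and *Flna*, the filamin that competes with talin (-0.37 and -0.60), all lower, and *Dok1*, an inhibitory adaptor of the beta tail, which was higher (0.61 and 0.71). The talin gene *Tln1* (0.03 and -0.07) and the kindlin gene of blood cells *Fermt3* (0.10 and 0.15) were not called.

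Of 18 ligands and latent TGF-beta genes, 14 passed the filter. With the table block, 6 were called higher and 3 lower by edgeR's quasi-likelihood test, beside 14.6% and 12.8% of all genes. The median log2 ratio of the 14 was 1.09 in set 1 and 0.66 in set 2. *Lrrc32* (GARP), which holds latent TGF-beta on the surface of regulatory T cells for release by Itgav with Itgb8, had 275 and 115 CPM in CD4+Lrig1+ against 9.001 and 1.39 CPM in CD4+Lrig1- libraries (log2 ratio 4.93 and 6.34, adjusted p = 2.50e-05 with the table block by edgeR). *Spp1*, which encodes the ligand osteopontin, held 54 and 285 counts against 0 and 3. *Vcam1*, the ligand of Itga4 with Itgb1, had 11.2 and 70.1 against 2.26 and 25.5 CPM (2.29 and 1.46, adjusted p = 4.92e-04 by the same edgeR test). *Vcam1* was higher in set 2 in both groups, as were the summed markers of T cells, B cells, NK cells, and macrophages and neutrophils. The part of these cells in the *Vcam1* values was not tested.

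Named after their values were seen, *Nrros*, the carrier of latent TGF-beta in myeloid cells, had log2 ratios of -0.53 and -0.69, and *Icam2*, an LFA-1 ligand, had -0.39 and -0.52, both called lower with the table block. *Cdh1*, which encodes the E-cadherin that CD103 binds, was called lower as well (-1.14 and -2.45) at no more than 2.83 CPM. The LFA-1 ligand *Icam1* was called higher (0.38 and 0.39), as were the latent TGF-beta binding genes *Ltbp1* (2.60 and 3.42) and *Ltbp4* (2.43 and 2.64), both at no more than 1.40 CPM. *Tgfb1* itself had 0.18 and 0.29 and was not called (adjusted p = 0.0624 with the table block by edgeR's quasi-likelihood test).

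**Figure D5:**
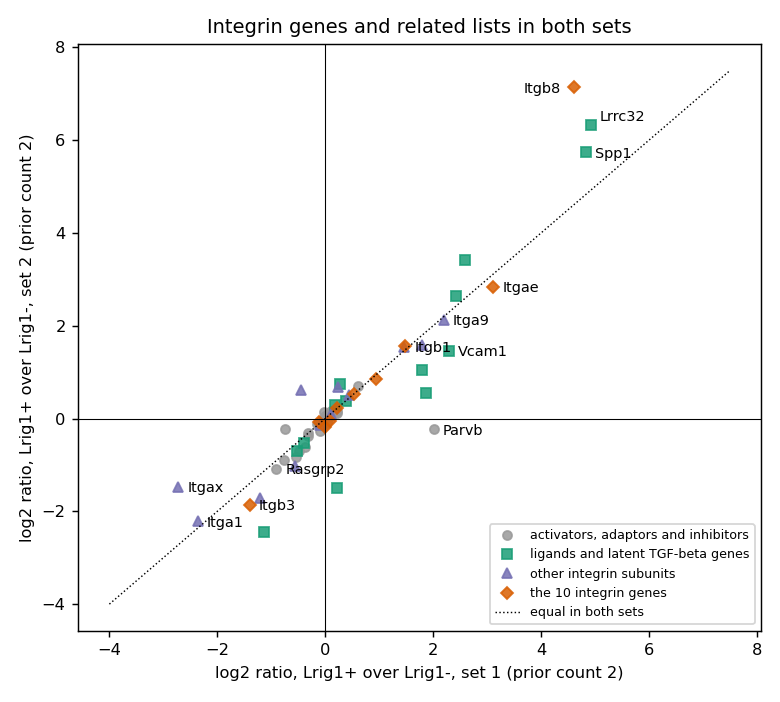
Log2 ratio between the groups (positive where CD4+Lrig1+ is higher, prior count 2) in set 1 (x axis) against set 2 (y axis) for the 10 integrin genes (diamonds), other integrin subunits (triangles), activators, adaptors and inhibitors (circles) and ligands and latent TGF-beta genes (squares) that passed the filter on low counts. Points near the dotted line have equal ratios in both sets, and *Itgb8* and *Lrrc32* lie at the upper right and *Itgb3* at the lower left. The places of *Itgb8*, *Spp1* and *Parvb* depend on the prior count because 1 library of each is at 0.

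The genes with the profile most like each member were found by the Euclidean distance of log2 CPM, centred on each gene's mean, over the 4 libraries, among 7612 genes with a mean log2 CPM of at least 4. They were *Endod1* (0.351) and *Nt5e* (0.383) for *Itgae*, *Lrrc32* (1.47) and *Ikzf2* (3.05) for *Itgb8*, *Slc45a4* (0.0649) and *Arhgap31* (0.0665) for *Itgav*, *H1f0* (0.144) and *Slc29a1* (0.145) for *Itgb1*, and *Satb1* (0.0876) and *Tgfbr3* (0.192) for *Itgb3*. A smaller value means a closer profile. *Lpar2* (0.0501) and *Cers4* (0.0634) were closest to *Itgal*, *Ppan* (0.0632) and *Tmem94* (0.0636) to *Itga4*, *Ddx20* (0.0158) and *Arhgef6* (0.0238) to *Itgb7*, *Slc35b4* (0.0214) and *Tpst2* (0.0243) to *Itgb2*, and *Susd6* (0.00830) and *Trim21* (0.0245) to *Itga6*. *Itgb8* had the most distant neighbours of the 10 members on this measure. The mean level of *Itgb8* lay below the limit of 4, so genes at its level were not among those compared. Its distances also depend on the prior count, because it had no count in the CD4+Lrig1- library of set 2.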

How the data were processed

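RNA of CD4 T cells, sorted by Lrig1 from mouse spleen, was sequenced. Per the labels, Trimmomatic 0.38, HISAT2 2.1.0, Bowtie2 2.3.4.1 and StringTie 2.1.3b were used with GRCm38. The estimated counts were deposited by the authors per transcript, not normalized. The FPKM values were deposited by the authors per transcript, scaled by length and mapped fragments. Columns of the authors' own comparisons were not used. The labels list 6 samples. A further table, with 2 per-sample library columns whose names do not give the group, was not used, which leaves 4 libraries.

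Estimated counts and FPKM were summed per gene symbol over 129299 transcripts. Using R 4.3.3, edgeR 4.0.16 (filterByExpr, TMM, quasi-likelihood test) was applied to all genes, with Benjamini-Hochberg adjusted p under 0.05 as a call. Within-set ratios were computed with a prior count of 2 and given exact Clopper-Pearson intervals, which cover counting error only. The members, lists and tests were chosen with earlier results of these data known. Named genes were the 10 members, the 3 largest changes of each list (mean count of at least 50, same direction in both sets) and the 2 nearest profiles of each member. Loci of the members were identical to RefSeq GRCm38.p6. Alternatives were the table block, DESeq2 1.42.0, limma 3.58.1 on log2 FPKM with pseudocounts of 1 or 0.1, other filters and scalings, removal of immunoglobulin genes, and leaving out each library. Python 3.11.15 was used to sum the tables. The fits were also run on simulated counts, whose spread was estimated from these libraries with the table block. Those runs cannot show whether the calls made here are right.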

Additional observations from a re-analysis of the deposited data

How the results depend on the processing

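No paired analysis was possible because the columns carry no replicate numbers, as far as pairing by replicate goes. The table block instead pairs the libraries by the table that holds them. Genes called higher and lower numbered 0 and 0 without the table block, 2358 and 2056 with it, 263 and 50 by DESeq2's Wald test, and 1 to 88 and 0 to 2 when a library was left out. Of the 10 integrin genes, 5 higher and 1 lower were called with the table block, 1 higher and 1 lower by DESeq2, and 0 to 1 higher when a library was left out. Leaving out a library leaves 1 sample in an arm, assumed to vary like the other group, and lets set differences enter. *Itgb8* passed without the CD4+Lrig1- library of set 1 (adjusted p = 4.45e-06 by edgeR) and without the CD4+Lrig1+ library of set 2 (0.0348 by edgeR). No call was made with DESeq2 size factors in edgeR, no filter, at least 10 counts, immunoglobulin genes removed or limma. At least 10 counts in every library gives *Itgb8* no value.

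The counts of 4 genes at least 1.5-fold higher and 1 lower in both sets held under size factors, library totals, a prior count of 0.5 and FPKM. The sign turned for *Itgb2*, whose log2 fold change was -0.00988 with size factors and by DESeq2 and -0.0191 to 0.0920 when a library was left out, and whose set 2 ratio was 0.0467 with library totals and 0.0382 with FPKM. It also turned for *Itgb7* (set 2 ratio 0.0186 with library totals and 0.0135 with FPKM, and -0.20 to 0.0334 when a library was left out), *Itga4* (-0.44 to 0.94) and *Itga6* (-0.19 to 0.0295). The causes were not tested. The median ratio of all genes stayed between -0.06 and 0.03 under each scaling. Depth limits *Itgb8* in CD4+Lrig1- T cells, at 41 and 0 counts.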
